A study of Drosophila melanogaster with 18 samples.

Results

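Respiratory complex I is the first enzyme of the mitochondrial electron transport chain, and 40 of the 17972 genes in the Illumina table carry names that begin with ND-, the prefix given to its nuclear-encoded subunits in Drosophila melanogaster. All 40 were taken by that prefix alone, and all 40 were also among the 13969 genes of the Nanopore table. The libraries came from whole adult flies of 3 genotypes, and each of the 2 sequencing platforms had 3 libraries of every genotype. All groups shared the driver GR23E10-gal4, which was the sole transgene of the control, was joined by UAS-dec2WT in the dec2WT group and by UAS-dec2P384R in the dec2P384R group. The yeast activator Gal4 turns on genes that follow UAS sites. The GR23E10 driver is known for activity in a small set of sleep-promoting neurons, while RNA was taken from whole animals, about 70 to an extraction. Housing was at 25 °C with 12 h light and 12 h dark, and collection was at zeitgeber time 3. The labels give neither age nor sex. Dec2 is a repressor of transcription, and its P384R form was found in human short sleepers.

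Complex I oxidises NADH, passes the electrons along a chain of iron-sulphur clusters to ubiquinone and pumps protons out of the mitochondrial matrix. Its matrix arm is built from the N module, which binds NADH and flavin, and the Q module, which reduces ubiquinone, while its membrane arm holds the proton channels. The core subunits of the membrane arm are encoded by mitochondrial DNA, the core subunits of the matrix arm by nuclear genes, and many nuclear accessory subunits surround them. Flight muscle is known for its dense mitochondria. By role, the 40 genes comprised 3 core subunits of the N module, 4 core subunits of the Q module, 5 accessory subunits of the N module, 3 of the Q module, 7 of the proximal membrane arm and 11 of the distal membrane arm. The other members were ND-MLRQ, whose mammalian counterpart NDUFA4 has been reassigned to complex IV, and 6 paralogs whose symbols end in L, L1 or L2. Roles of accessory subunits are those known from mammals. The genes lie on X (9), 2L (9), 2R (8), 3L (9), 3R (4) and 4 (1, ND-49), all are protein coding, and the deposited coordinates of all 40 are those of the annotation BDGP6.54.

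Illumina libraries held 18057117 to 28293197 reads on genes and Nanopore libraries 1922380 to 4659601 estimated counts. The 40 genes together took 0.653% to 0.775% of Illumina reads and 0.837% to 1.13% of Nanopore counts. A member with any Illumina signal had at least 166 reads in every library, and a member had at least 20 estimated counts in every Nanopore library. Among Illumina libraries dec2P384R replicate 2 stood apart: genes of the mitochondrial genome took 13.3% of its reads, against 9.23% to 10.9% in the other 8. Markers of egg and yolk formation were near 0 in all Illumina libraries (3 to 5 of the 10 listed at 0, and a summed level of 9.54 to 17.3 FPKM), while 13 of the 14 testis markers in the table were at 11.8 FPKM or more in every library. The genes listed as flight muscle markers were above 0 in every library (10 of 10). Their summed levels were 757 to 1068 FPKM in the control, 695 to 983 in dec2WT and 714 to 1075 in dec2P384R. The genes contributed unevenly: up had 209 to 320 FPKM, wupA 169 to 269, Mlp84B 131 to 177 and Act88F 20.7 to 268. By contrast, fln had only 0.543 to 1.32 FPKM, so the sum does not follow it. Whether the sum follows flight muscle alone was not tested. In whole flies a lower level in bulk RNA may be fewer cells of a type or less RNA per cell, and these cannot be told apart.

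The complex I genes were abundant and lay close together in level. Illumina values are given in FPKM, which divide fragments by gene length and by a scale for each library and so allow levels of different genes to be compared. That scale is the authors' and differs from the plain total of reads on genes. Of the 40 genes, 29 had a mean above 100 FPKM over the 9 libraries. For the 33 genes outside the L-named paralogs that had Illumina signal, the middle of the distribution ran from 139 to 239 FPKM, a 1.72-fold span between quartiles. ND-MLRQ was the highest at 933 FPKM, followed by ND-51 at 450.0 FPKM and ND-23 at 365 FPKM. The lowest were ND-MNLL at 0, ND-51L2 at 8.82 and ND-MWFE at 11.8 FPKM. Median levels by role were 246 FPKM for the N module core, 211 for the Q module core, 167 and 243 for the accessory subunits of the N and Q modules, and 133 and 155 for those of the proximal and distal membrane arm. The 6 L-named paralogs had a median of 18.2 FPKM. The Illumina medians of the proximal and distal membrane arm include ND-MWFE and ND-MNLL respectively. On Nanopore, in TMM-scaled CPM that are not divided by gene length, the median was 260 for either core. It was 202 and 237 for the accessory subunits of the N and Q modules, and 243 and 269 for the proximal and distal membrane arm.

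**Figure D1:**
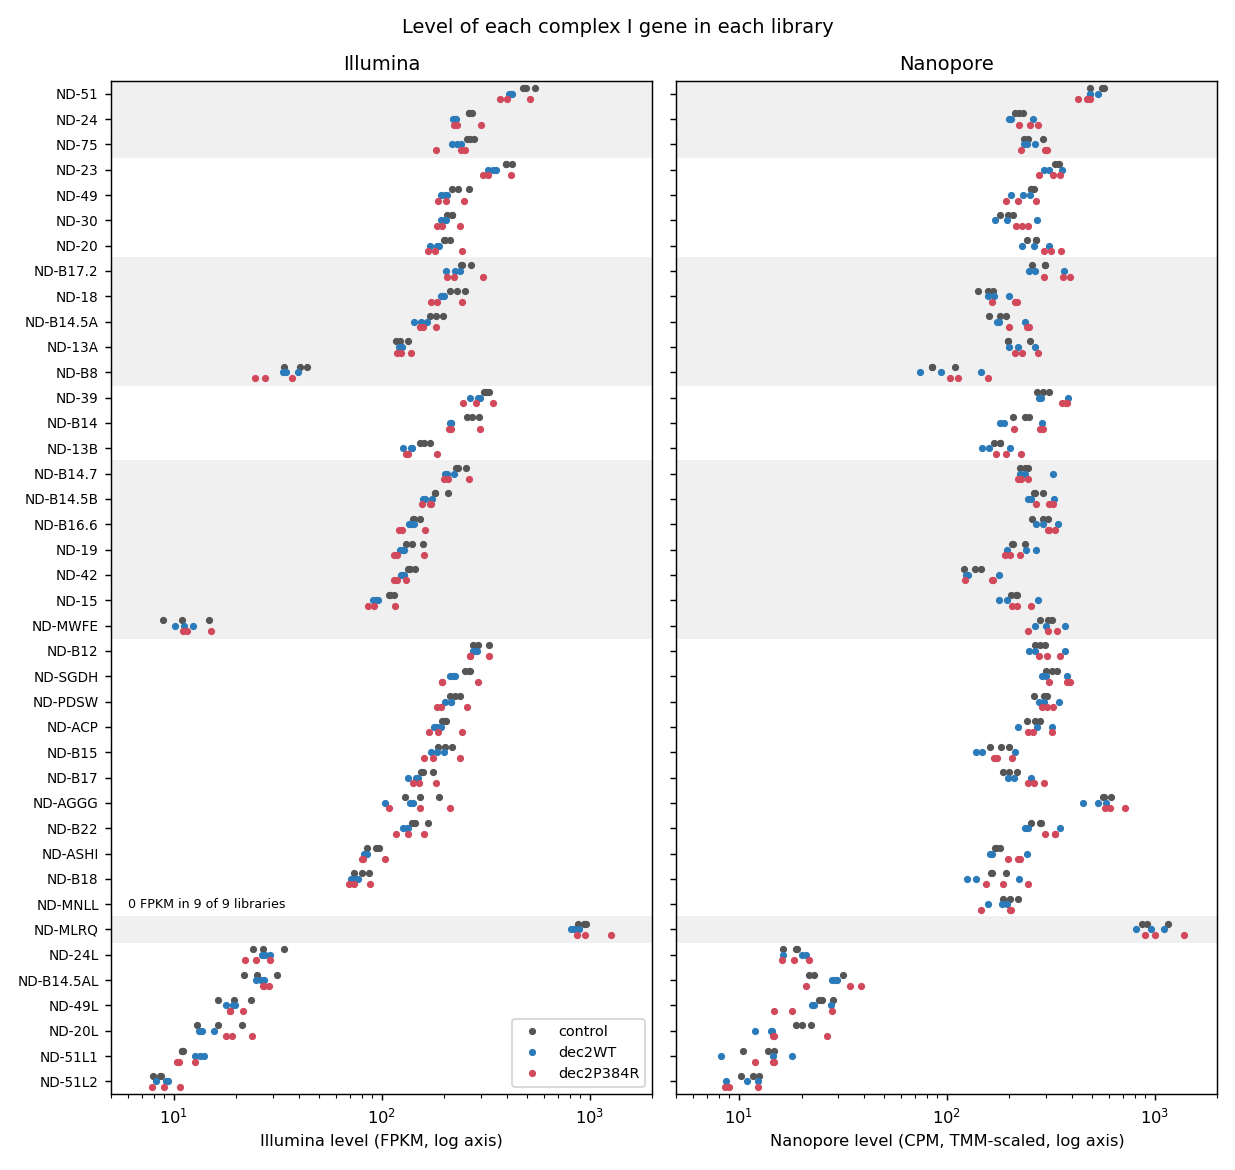
Level of each of the 40 genes in each library, as FPKM on Illumina (left) and TMM-scaled CPM on Nanopore (right), both on log axes. Genes are ordered by role in shaded blocks (from the top: core N, core Q, accessory N, accessory Q, proximal membrane arm, distal membrane arm, ND-MLRQ, L-named paralogs), and each point is 1 library coloured by genotype. Most genes sit between 100 and 500 FPKM, the paralogs below 50, and the genotypes differ by little at each gene.

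The platforms gave very different values for ND-MNLL and ND-MWFE. ND-MNLL (FBgn0029971, X:7893053-7893798, minus strand), the counterpart of mammalian NDUFB1, was listed at 0 FPKM in all 9 Illumina libraries, where 3 reads would be at most 0.225 FPKM. On Nanopore it had 297 to 779 estimated counts in every library. All of its exon bases (100%) are shared on the same strand with CG45089, a gene model of identical coordinates that was also listed at 0 FPKM in all 9 Illumina libraries and had 231 to 747 estimated Nanopore counts. ND-MWFE (FBgn0085468, 2R:13158666-13160190, plus strand), the counterpart of NDUFA1, had 11.8 FPKM on Illumina but 304 CPM on Nanopore. Of its exon bases 34.95% are shared with neighbours, 128 bases with Nrk on the same strand and 167 with TppII on the opposite strand. Its ratio of Nanopore CPM to Illumina FPKM was 25.7, where the median over the members with Illumina signal was 1.21 and the lowest was 0.688. Nanopore CPM are not divided by gene length, so this ratio also moves with length. ND-AGGG had a ratio of 3.94 and ND-B8 of 3.07, and neither shares over 25% of its exon bases. Only ND-MNLL, ND-MWFE and ND-B22 do so, and 22 members share none. Whether shared bases set the Illumina values of ND-MNLL and ND-MWFE was not tested, and the strand setting of the counting was not given in the sources used here.

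**Figure D2:**
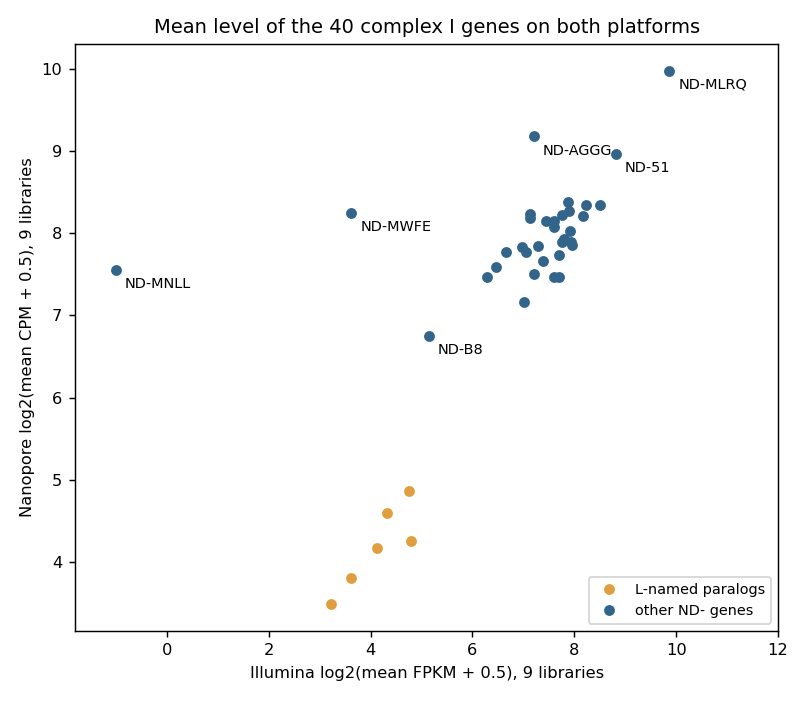
Mean level of the 40 genes over 9 libraries on each platform, as log2(FPKM + 0.5) on Illumina and log2(CPM + 0.5) on Nanopore, with 1 point per gene. ND-MNLL (0 FPKM) and ND-MWFE (11.8 FPKM) lie far to the left of the other genes outside the paralogs, and the 6 L-named paralogs are low on both axes.

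In dec2WT flies against the driver control, complex I genes were slightly lower on Illumina as a group, and no single gene passed the test. The comparison addresses what the wild-type Dec2 transgene does to the transcriptome. The control carries the driver alone, so expression of Dec2 cannot be told apart from the transgene's insertion or the background of the line. Of the 39 members tested 36 had a log2 fold change below 0, with a median of −0.17. All 33 outside the paralogs were below 0, from −0.35 to −0.01, and their median of −0.18 stands for a level 11.6% lower, while the median over all 13418 genes tested was 0.00. None of the 39 passed an adjusted p of 0.05 with limma (lowest 0.298), where 2.61% of all genes did. At an unadjusted p under 0.05 there were 2 members, ND-B14 lower and ND-51L1 higher, against 11.3% of all genes. Yet the 3 dec2WT libraries lay below all 3 control libraries for 23 of the 39 members, against 10.9% of all genes, and above them for ND-51L1 alone, against 9.10% of all genes. In the same comparison the flight muscle markers had a median log2 fold change of −0.15, with 8 of 10 below 0, and the testis markers one of 0.12, with 11 of 13 tested above 0; 0 of either list passed the threshold, and their part in the result was not tested. Genes can move together in a library, as in dec2P384R replicate 2 below. Counts of genes, here and below, are therefore not counts of independent results. By library, complex I genes together took 0.769%, 0.729% and 0.711% of Illumina reads in control replicates 1 to 3. In dec2WT replicates 1 to 3 they took 0.657%, 0.663% and 0.666%, and this difference in share was not tested. Without control replicate 1 the median log2 fold change over the 39 members was −0.11. When reads were scaled to the library total in place of the authors' scaling, the members below without overlap were 18, against 8.25% of all genes.

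The core subunits show how small and how regular these differences were. ND-51 (FBgn0031771, 2L:6060842-6062757), which binds NADH and flavin, stood, in replicates 1 to 3, at 477, 547 and 495 FPKM in the control, at 423, 417 and 408 in dec2WT, then 370.3, 515 and 398 in dec2P384R. The 3 dec2WT libraries all lay below the control, and dec2P384R replicate 2 lay within the control's range. Its log2 fold change in dec2WT was −0.28 ± 0.14 (SE, n = 3 per group; limma adjusted p = 0.51), with a 95% interval from −0.59 to 0.02. ND-24 (FBgn0030853, X:17632089-17633509), an iron-sulphur subunit next to ND-51, stood at 262, 271 and 263 FPKM in the control and 227, 219.6 and 225 in dec2WT, with 229, 298 and 222 in dec2P384R. ND-75 (FBgn0017566, X:8248651-8251687), the large subunit that carries several iron-sulphur clusters, stood at 256, 277 and 265 FPKM in the control and 216, 231 and 241 in dec2WT, with 182, 251 and 241 in dec2P384R. For both genes all dec2WT libraries lay below all control libraries. The dec2WT log2 fold changes were −0.24 ± 0.12 for ND-24 and −0.21 ± 0.13 for ND-75.

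The Q module core showed the same pattern. ND-49 (FBgn0039909, 4:568296-571554), which forms the ubiquinone site together with ND-20, stood at 217, 261 and 233 FPKM in the control and 192, 205 and 202 in dec2WT, with 186, 247 and 203 in dec2P384R. ND-20 (FBgn0030718, X:15985473-15986808), which holds the last iron-sulphur cluster before ubiquinone, stood at 199.7, 212 and 202 FPKM in the control and 171, 184 and 189 in dec2WT, with 166, 242 and 179 in dec2P384R. For these genes too the dec2WT libraries all lay below the control, and dec2P384R replicate 2 was the highest of its group. ND-23 (FBgn0017567, 3R:15836048-15837117), another iron-sulphur subunit, stood at 423, 397 and 395 FPKM in the control and 341, 324 and 353 in dec2WT, with 305, 420.1 and 324 in dec2P384R. ND-30 (FBgn0266582, 3L:3158485-3159578), which joins the N and Q modules, stood at 218, 218 and 206 FPKM in the control and 193, 202 and 204 in dec2WT, with 185, 237 and 195 in dec2P384R. All 7 core subunits thus had dec2WT libraries that did not overlap the control, with log2 fold changes from −0.28 for ND-51 to −0.10 for ND-30. Their 95% intervals all included 0. The standard errors and intervals use a spread shared by all 9 libraries, and dec2P384R varied most. The median coefficient of variation over 33 members was 16.8% there, 6.46% in the control and 3.81% in dec2WT.

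Among accessory subunits the lowest dec2WT value belonged to ND-B14 (FBgn0033570, 2R:10897144-10897885), which in mammals is NDUFA6, an LYR-motif protein that holds the acyl carrier protein on the matrix arm. It stood at 293, 271 and 256 FPKM in the control and 215, 212 and 215 in dec2WT, with 215, 296 and 210.4 in dec2P384R. Its log2 fold change in dec2WT was −0.35 ± 0.14 (SE), or 1.27-fold lower, with an interval from −0.65 to −0.04 and a limma adjusted p of 0.331. ND-AGGG, of the distal membrane arm, was next at −0.29 ± 0.23, with control values from 129 to 188 FPKM that overlapped dec2WT values from 104 to 142 FPKM. By role, dec2WT libraries lay below the control without overlap for 3 of 5 accessory N module genes, 3 of 3 of the Q module, 5 of 7 of the proximal membrane arm and 5 of 10 tested of the distal membrane arm, against 10.9% of all genes. The median log2 fold changes of these roles were −0.17, −0.26, −0.18 and −0.13. Of the largest values above 0, ND-51L1 was at 0.27, ND-51L2 at 0.08 and ND-B14.5AL at 0.01, all of them paralogs.

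**Figure D3:**
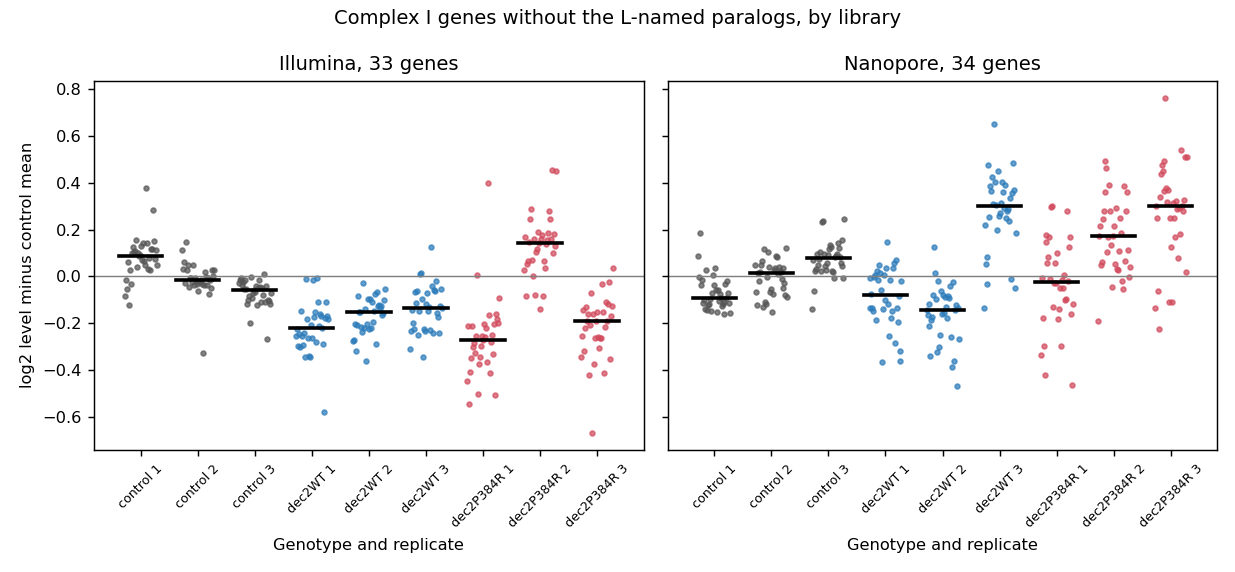
Log2 level of each complex I gene in each library minus its mean over the 3 control libraries, without the L-named paralogs. Each point is 1 gene, black bars are medians over the genes, and colours are genotypes. On Illumina (33 genes, left) all dec2WT libraries and dec2P384R replicates 1 and 3 lie below the control with medians from −0.27 to −0.14, and dec2P384R replicate 2 lies above it at 0.14. On Nanopore (34 genes, right) dec2WT replicate 3 and dec2P384R replicate 3 lie highest, both at 0.30.

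On Nanopore the dec2WT difference was not seen as a group. The median log2 fold change of the 40 members was 0.03 (all 11393 genes tested, 0.00), with 25 members above 0 and 15 below. None passed an adjusted p of 0.05 with edgeR (lowest 0.362), where 0.799% of all genes did, and at an unadjusted p under 0.05 there was 1, ND-20L, against 10.1% of all genes. Libraries did not overlap for 2 members, ND-49 and ND-20L, both lower, against 8% of all genes, and for 0 members higher, against 7.44%. The sign of the median rested on 1 library. Nanopore dec2WT replicate 3 had a median of 0.30 over the control mean, while replicates 1 and 2 had medians of −0.08 and −0.14. It was the highest of its group for 33 of 34 genes outside the paralogs, and the share of all genes was not computed. Without replicate 3 the median log2 fold change was −0.12 and 33 of 40 members were below 0, with 0 past the threshold. The summed level of the 10 flight muscle markers was 4746 CPM in that library, 2474 and 3909 CPM in dec2WT replicates 1 and 2, and 3949 to 4664 CPM in the control. Control replicate 1, with 4664 CPM, had the lowest summed complex I level of its group, 8952 CPM against 9306 and 9897. The part of these markers in the result was not tested. ND-49 stood at 255, 254 and 263 CPM in the control and at 232, 203 and 251 in dec2WT, a log2 fold change of −0.17 ± 0.16 (SE). Of the 39 members tested on both platforms 13 were below 0 on both in dec2WT, and 23 were below 0 on Illumina and above 0 on Nanopore. The lowest dec2WT values on Nanopore were those of ND-20L (−0.58), ND-MNLL (−0.18) and ND-49, and the highest were those of ND-B14.5AL (0.18), ND-18 (0.18) and ND-B8 (0.16). ND-MNLL shares all its exon bases with CG45089, and the ratio of their estimated counts varied. In dec2WT replicates 1 and 3 ND-MNLL had 730 and 694 counts, and CG45089 had 747 and 490. The part of this split in the ND-MNLL value was not tested.

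In dec2P384R flies against the driver control the Illumina libraries split, with replicates 1 and 3 low and replicate 2 high. The comparison addresses the mutant transgene, with the same limit as for dec2WT. Over the 33 genes outside the paralogs, the median over the control mean was −0.27 in replicate 1, 0.14 in replicate 2 and −0.19 in replicate 3. Replicate 1 lay below all 3 control libraries for 31 of the 33 genes and replicate 3 for 29. Replicate 2 lay above all of them for 21 and was the highest of its group for 32. The shares of all genes for these single-library counts were not computed, so the counts do not set the members apart from other genes. The 40 genes took 0.653% and 0.668% of reads in replicates 1 and 3 and 0.775% in replicate 2, with 0.711% to 0.769% in the control and 0.657% to 0.666% in dec2WT. The spread within the group was accordingly wide, with a median coefficient of variation of 16.8% over the 33 genes, against 6.46% in the control and 3.81% in dec2WT. The flight muscle markers summed to 1075 FPKM in replicate 2 and to 780.4 and 714 FPKM in replicates 1 and 3. In the other groups these markers were highest in control replicate 2 (1068 FPKM) and dec2WT replicate 1 (983 FPKM). There the 40 genes took 0.729% and 0.657% of reads, the latter being the lowest share in dec2WT. The part of these markers and of the mitochondrial reads in the result was not tested.

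With all libraries, the dec2P384R median over 39 members was −0.10 on Illumina (all genes, 0.00), and 31 members were below 0. Without replicate 3 it was −0.03. None passed with limma (lowest adjusted p 0.245), where 2.80% of all genes did, and 1 member, ND-B8, had an unadjusted p under 0.05, against 14.1% of all genes. The dec2P384R libraries lay below the control without overlap for ND-42, ND-75 and ND-B14.5B, against 7.83% of all genes, and above it for 0 members, against 8.16%. With reads scaled to the library total in place of the authors' scaling, 2 members lay below, against 5.42% of all genes, and 0 above, against 10.8%. Leaving out dec2P384R replicate 2, a step chosen after seeing the data for these counts, gave 29 members lower without overlap, against 15% of all genes, and 1 higher, against 13.8%. The median was then −0.23, and 21 of 39 members had an unadjusted p under 0.05, against 15.3% of all genes. One member, ND-SGDH, then fell, with a log2 fold change of −0.41 and a limma adjusted p of 0.0354. ND-SGDH (FBgn0011455, 3L:12137496-12138584) is the counterpart of NDUFB5 in the distal membrane arm. It stood at 266, 264 and 252 FPKM in the control and 225, 213 and 220.2 in dec2WT, with 195, 289.7 and 196 in dec2P384R, and with all libraries its log2 fold change was −0.22 ± 0.15 (SE; adjusted p = 0.558). Fits without dec2P384R replicate 2 treat the remaining pair of libraries as varying like the other groups.

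The largest dec2P384R falls on Illumina were those of ND-B8 and of the core subunits ND-75 (−0.26 ± 0.13) and ND-51 (−0.25 ± 0.14), none past the threshold. ND-B8 (FBgn0040705, 2L:4454626-4455207), in mammals the thioredoxin-like NDUFA2, stood at 43.6, 40.4 and 34 FPKM in the control and 34.4, 33.5 and 39.5 in dec2WT, with 27.5, 37 and 24.4 in dec2P384R. Its dec2P384R log2 fold change was −0.42 ± 0.16 on Illumina (adjusted p = 0.245) and 0.42 ± 0.24 on Nanopore (adjusted p = 0.549), so the platforms gave opposite signs. Its Nanopore values were 85, 85.1 and 109 CPM in the control and 113, 104 and 157 in dec2P384R. The genes furthest above 0 on Illumina were ND-20L (0.27), ND-MWFE (0.13) and ND-MLRQ (0.13). ND-MLRQ stood at 954, 941 and 878 FPKM in the control and at 866, 1262 and 947 in dec2P384R, where the value of 1262 came from replicate 2. Within pairs of control and dec2P384R libraries of the same number, ND-B8, ND-75 and ND-51 were lower in dec2P384R in 3 of 3 pairs, ND-20L and ND-MWFE were higher in 3 of 3, and ND-MLRQ was higher in 2 of 3. These 6 genes were picked by their fold change in the same libraries, so the pair counts add no separate support. ND-24L, ND-42, ND-49 and ND-B14.5B were also lower in 3 of 3 pairs, and the share of all genes was not computed. With the replicate number as a block, the limma adjusted p of the 6 picked genes ran from 0.194 (ND-B8) to 0.681 (ND-MLRQ).

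On Nanopore the dec2P384R median over 40 members was 0.14 (all genes, 0.00), with 30 above 0. None passed with edgeR (lowest adjusted p 0.373), where 0.474% of all genes did. At an unadjusted p under 0.05 there were 4 members, ND-B17, ND-B14.5A, ND-39 and ND-18, all higher, against 11% of all genes. Libraries did not overlap for 7 members, all higher (ND-B22, ND-30, ND-ASHI, ND-20, ND-39, ND-B14.5A and ND-B17), against 8.23% of all genes, and for 0 members lower, against 8.73%. ND-39, the NADPH-binding counterpart of NDUFA9, stood at 270.2, 288 and 309 CPM in the control and at 356, 378 and 375 in dec2P384R, a log2 fold change of 0.35 ± 0.16 (SE; adjusted p = 0.443). ND-B17, of the distal membrane arm, stood at 186, 199 and 219 CPM in the control and at 244, 263 and 292 in dec2P384R, a log2 fold change of 0.40 ± 0.16 (SE; adjusted p = 0.373). On Illumina the same genes had values of −0.14 and −0.05. ND-B14.5A was at 0.38 and ND-18, the counterpart of NDUFS4, at 0.35 on Nanopore. The lowest values were −0.40 for ND-49L, −0.23 for ND-51L2 and −0.22 for ND-51. Of the 39 members tested on both platforms 26 were below 0 on Illumina and above 0 on Nanopore, and 9 had the same sign on both. Within Nanopore dec2P384R the library medians were −0.02, 0.17 and 0.30. Replicate 1, with the fewest counts, was the lowest for 32 of 34 genes outside the paralogs, and the share of all genes was not computed. The flight muscle markers summed to 3015, 3921 and 4667 CPM in the same libraries, and their part in the result was not tested. Without replicate 3 the median log2 fold change was 0.04, and without replicate 1 it was 0.21.

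**Figure D4:**
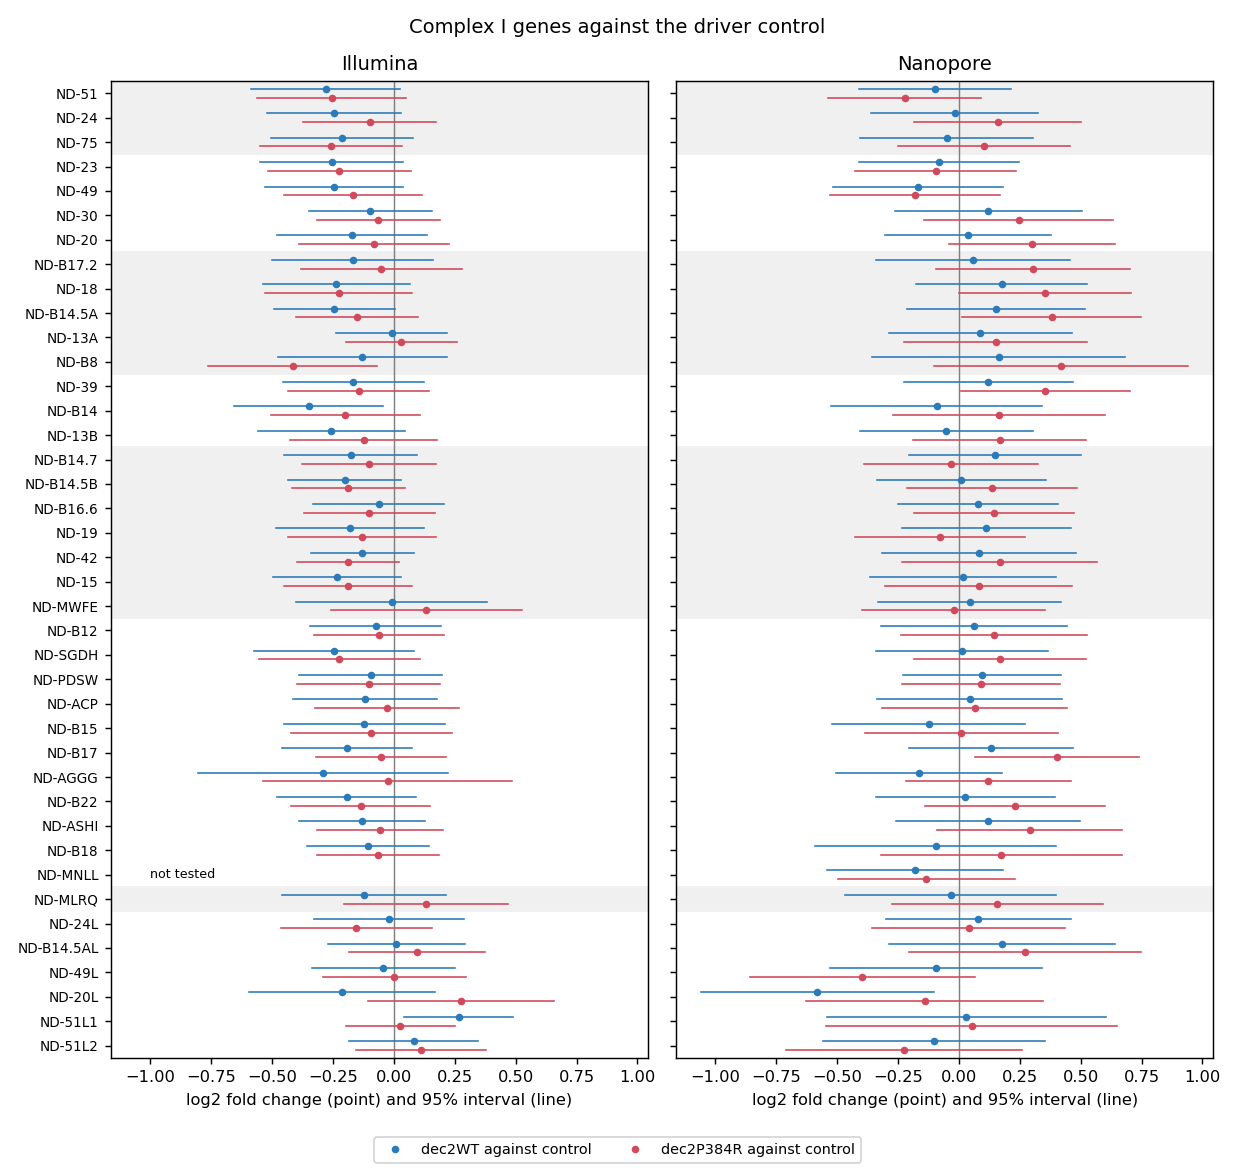
Log2 fold change of each complex I gene against the driver control, with 95% intervals, for dec2WT (blue) and dec2P384R (red) on Illumina (left, limma on log2(FPKM + 0.5)) and Nanopore (right, edgeR). Shaded blocks are roles as in the plot of levels, and both comparisons use the same control libraries. On Illumina nearly all dec2WT points outside the paralogs lie between −0.35 and 0 with intervals that reach 0, and on Nanopore the points lie on both sides of 0.

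The transgenic genotypes were also compared with each other, which asks what the P384R change adds. The groups carry separate transgenes, so any difference in insertion or line background cannot be told apart from that change. On Illumina the median of the 39 members was 0.05 in dec2P384R against dec2WT (all genes, 0.00), with 32 above 0, and without dec2P384R replicate 2 it was −0.05 with 29 below 0, and without dec2P384R replicate 1 it was 0.12. None passed with limma (lowest adjusted p 0.409), where 0.783% of all genes did. At an unadjusted p under 0.05 there were 2, ND-20L higher and ND-51L1 lower, against 8.07% of all genes. These were also the genes whose libraries did not overlap, 1 higher (against 7.12% of all genes) and 1 lower (against 6.16%). On Nanopore the median was 0.13 with 30 of 40 above 0, none passed with edgeR (lowest adjusted p 0.751, against 0.132% of all genes past the threshold), and 0 had an unadjusted p under 0.05, against 7.19% of all genes. Libraries did not overlap for 1 member, ND-20L, which was higher (against 5.91% of all genes), and for 0 lower (against 5.47%). The gap was narrow: its lowest dec2P384R value was 14.6 CPM and its highest dec2WT value 14.4 CPM. These libraries had 30 to 67 estimated counts of ND-20L, and dec2P384R replicate 3 stood alone at 26.5 CPM. Without Nanopore dec2WT replicate 3 the median was 0.27 and 10 members had an unadjusted p under 0.05, against 8.999% of all genes, with 0 past the threshold, and without dec2P384R replicate 3 the median was 0.05. For the 33 genes outside the paralogs, Illumina values in dec2P384R against dec2WT ran from −0.29 (ND-B8) to 0.27 (ND-AGGG), and ND-MLRQ was at 0.25. On Nanopore the lowest were ND-49L (−0.30), ND-19 (−0.19) and ND-B14.7 (−0.18), and the highest were ND-20L (0.44), ND-AGGG (0.28) and ND-B17 (0.27).

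The 6 L-named paralogs differ from their parent genes in level and position. Each was expressed at a small share of its parent on Illumina, from 1.96% for ND-51L2 and 2.63% for ND-51L1 through 8.79% for ND-20L, 8.97% for ND-49L and 10.98% for ND-24L to 15.9% for ND-B14.5AL. The parents lie on X (ND-24, ND-20 and ND-B14.5A), on 4 (ND-49) and on 2L (ND-51), and the paralogs lie on 3L (ND-24L and ND-B14.5AL), 3R (ND-20L and ND-49L) and 2R (ND-51L1 and ND-51L2). No paralog lies on the X chromosome, and 3 of the 6 (ND-24L, ND-51L1 and ND-B14.5AL) consist of 1 exon while their parents have 4, 4 and 2. Their summed Illumina level was highest in control replicate 1 (130 FPKM) and dec2P384R replicate 1 (126 FPKM), and lowest in control replicate 2 (93.8 FPKM). The summed level of testis markers was highest in the same libraries, 4425 and 4515 FPKM, and lowest in control replicate 2 at 3078 FPKM. On Nanopore both sums were highest in dec2P384R replicate 3, at 128 CPM for the paralogs and 7133 CPM for the testis markers. The lowest values fell in different libraries. Paralogs were lowest in dec2P384R replicate 2 (87.5 CPM, testis markers 5648), and testis markers in control replicate 2 (5331 CPM, paralogs 109). The part of the share of testis RNA in the paralogs' values was not tested.

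ND-20L (FBgn0039669, 3R:29515717-29516527) stood at 21.3, 12.9 and 16.2 FPKM in the control and 15.7, 13.7 and 13.1 in dec2WT, with 23.7, 19 and 17.7 in dec2P384R. The dec2P384R libraries all lay above dec2WT, and both overlapped the control. Its log2 fold change in dec2P384R against dec2WT was 0.49 ± 0.17 (SE), or 1.40-fold higher (limma adjusted p = 0.409). On Nanopore it stood at 18.9, 22.1 and 20.2 CPM in the control and 14.4, 12 and 14.3 in dec2WT, with 14.74, 14.63 and 26.5 in dec2P384R. The Nanopore value of dec2P384R against dec2WT was 0.44 ± 0.23 (edgeR adjusted p = 0.751), and that of dec2WT against the control was −0.58 ± 0.22 (adjusted p = 0.362). ND-51L1 (FBgn0034251, 2R:17595267-17597409) stood at 10.9, 10.9 and 11 FPKM in the control and 13.3, 14 and 12.6 in dec2WT, with 12.6, 10.6 and 10.4 in dec2P384R. It was the member furthest above 0 in dec2WT against the control, at 0.27 ± 0.10 (SE; limma adjusted p = 0.298), and its Nanopore value was 0.03 ± 0.26. ND-24L, ND-49L, ND-51L2 and ND-B14.5AL had Illumina log2 fold changes between −0.15 and 0.11 against the control in both genotypes.

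Medians of the other nuclear respiratory complexes had the same sign as that of complex I in Illumina dec2WT and in the single libraries given here, with sizes that varied. In dec2WT against the control on Illumina, the median log2 fold changes were −0.22 for 4 genes of complex II, −0.19 for 8 of complex III, −0.18 for 9 of complex IV and −0.15 for 13 of complex V. All 34 of these genes were below 0, 27 of them without overlap between the libraries (4, 5, 7 and 11), against 10.9% of all genes. None passed the limma threshold, which 2.61% of all genes did. In dec2P384R replicate 2 the medians over the control mean were 0.11, 0.20, 0.21 and 0.19 for complexes II to V, against 0.14 for complex I, while in replicate 1 they were −0.30, −0.33, −0.29 and −0.38. Nanopore dec2WT replicate 3 had medians of 0.17, 0.31, 0.28 and 0.42 in the same order. For Nanopore dec2WT against the control, signs were mixed, with median log2 fold changes of −0.05, 0.05, −0.05 and 0.02 for complexes II to V. There 8 of 9 complex IV genes were below 0, while the median of the 40 members was 0.03. NP15.6, the counterpart of NDUFB11 outside the ND- prefix, was at −0.23 ± 0.14 in dec2WT and −0.11 ± 0.14 in dec2P384R on Illumina. The 9 assembly factors, which help build the complex without belonging to it, had medians of −0.09 in dec2WT and −0.02 in dec2P384R on Illumina, with 5 and 6 of 9 below 0 and 0 past the threshold.

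The 7 mitochondrially encoded subunits of complex I, mt:ND1 to mt:ND6 and mt:ND4L, are given beside the nuclear genes. Their median log2 fold change on Illumina was −0.11 in dec2WT against the control (4 of 7 below 0) and −0.20 in dec2P384R (6 of 7 below 0). Their median over the control mean was −0.01, −0.02 and 0.07 in the Illumina dec2WT libraries, where the nuclear genes were at −0.22, −0.15 and −0.14, and this difference was not tested. In dec2P384R they split as the nuclear genes did, at −0.49, 0.28 and −0.35. On Nanopore their median log2 fold change in dec2P384R was −0.47, opposite in sign to that of the nuclear genes, and in dec2WT it was −0.19, with 5 of 7 below 0 and 2 lower without overlap (against 8% of all genes). In dec2P384R 5 of 7 were lower and mt:ND4L higher at an unadjusted p under 0.05, against 11% of all genes. None of the 7 passed the threshold with limma on Illumina or with edgeR on Nanopore in any comparison.

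**Figure D5:**
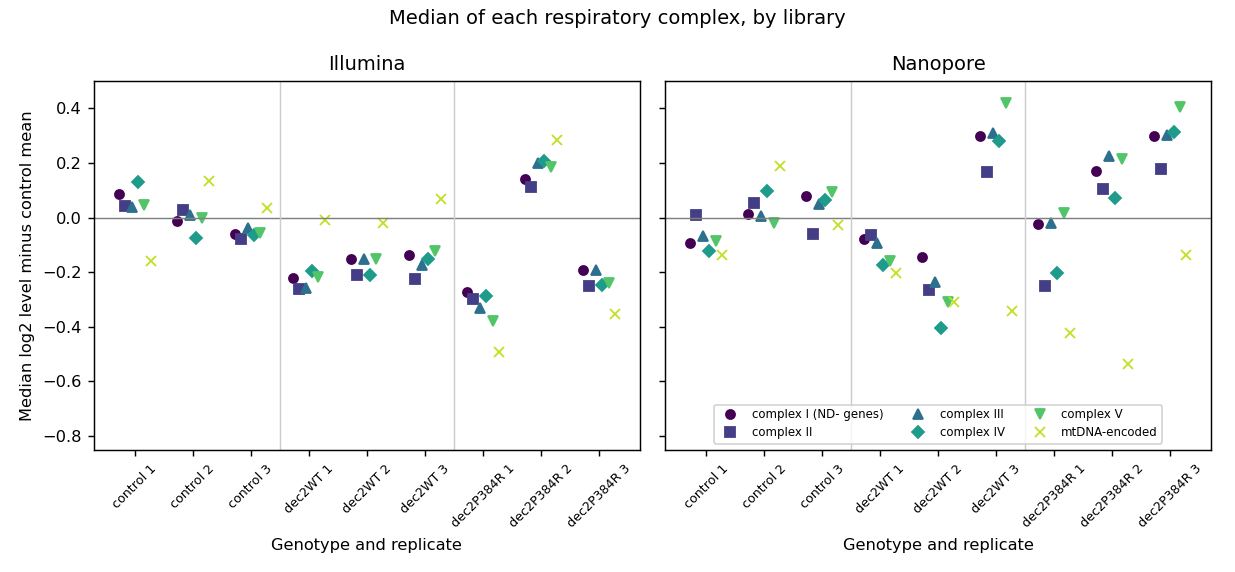
Median log2 level of each respiratory complex minus its mean over the 3 control libraries, by library, on Illumina (left) and Nanopore (right). Symbols are the ND- genes of complex I without paralogs, the nuclear genes of complexes II to V, and the 7 mitochondrially encoded subunits of complex I. On Illumina the nuclear complexes of dec2P384R replicate 2 are above the rest of their group. On Nanopore those of dec2WT replicate 3 are above the rest of theirs.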

How the data were processed

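RNA of whole flies was sequenced as polyA-enriched Illumina libraries and Nanopore direct cDNA libraries, per the labels' protocols. Tools named without a role, per the submitters' processing notes, are minimap2, HISAT2, DESeq2, Salmon and featureCounts (1.5.0-p3). The Illumina values as deposited by the authors are FPKM, and their product with gene length and a library constant was a whole number of reads in 100% of values (tolerance 1e-06). The authors' deposited comparison tables hold counts for part of the genes, which fixed those constants. The Nanopore values as deposited by the authors are estimated counts, 55.1% of them not whole. Of the per-library columns, 36 were left unused. The Illumina column of dec2P384R replicate 2 spells the mutant with exchanged digits and was taken for that library by its remaining name.

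The Illumina test was limma 3.58.1 with a trended prior, on log2(FPKM + 0.5), a scale that understates folds of low genes. It took the 13418 genes that reached 0.5 FPKM in 3 or more of the 9 libraries. For Nanopore, rounded estimated counts entered edgeR 4.0.16 (TMM, filterByExpr, quasi-likelihood) with 11393 genes, and CPM are TMM-scaled. ND-MNLL was not tested on Illumina. R was version 4.3.3. All 9 libraries of a platform shared 1 model with genotype as factor, p-values were two-sided and Benjamini-Hochberg adjusted over all genes tested, and the threshold was 0.05. Per the labels, each genotype has 3 independent biological replicates. Limits from a count of 0 use 3 counts and cover counting error only. The fits were tested on simulated data whose changes were larger than the members' differences reported here, so that test does not cover differences of this size. Exon overlap was computed on BDGP6.54.

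The members and lists were chosen with earlier results of these data known. Named with values are the 7 core subunits, the 3 highest and lowest members, the paralogs, members past the threshold, and the 3 largest rises and falls in each comparison and platform; ND-SGDH, ND-B17, ND-39 and members beside them with an unadjusted p under 0.05 or no overlap were added after their values were seen. Equal replicate numbers were checked for pairing by the correlation of libraries' deviations from their group means. For Illumina control and dec2P384R the 3 correlations were 0.256, 0.116 and 0.251, all over 0.1. No other pair of groups on either platform had all 3 over 0.1.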

Additional observations from a re-analysis of the deposited data

How the results depend on the processing

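In each of the 6 comparisons, 0 complex I genes passed under another pseudocount (0.1 FPKM), no filter on low values, edgeR or DESeq2 on recovered reads, DESeq2 on Nanopore counts, a fit of the 6 compared libraries alone or, an alternative added after seeing the data, scaling to total reads. With the replicate number as a block, the replicate block, 0 members passed in each comparison, so it changed no member's call. When each library was left out in turn, the number of members past the threshold ran from 0 to 1 in Illumina dec2P384R against the control (ND-SGDH, without dec2P384R replicate 2) and stayed at 0 in the other 5 comparisons. The lowest adjusted p of a member for Illumina dec2WT against the control was 0.0582 without dec2P384R replicate 2, and it was 0.0671 with the 6 compared libraries alone, where 12 members had an unadjusted p under 0.05 (against 14.4% of all genes). The sign of a member's log2 fold change differed in 160 of 2133 values when a library was left out and in 14 of 1299 under other settings.

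With each library left out in turn, and no other setting changed, the median log2 fold change of the members moved as follows. On Illumina it ran from −0.23 to −0.03 in dec2P384R against the control. It ran from −0.20 to −0.11 in dec2WT against the control (highest without control replicate 1) and from −0.05 to 0.12 in dec2P384R against dec2WT. On Nanopore these ranges were 0.04 to 0.21, −0.12 to 0.10 and 0.05 to 0.27. Over the same omissions, counts of all genes past the threshold on Illumina ran from 179 to 354 (376 with all libraries), from 182 to 387 (350.0) and from 56 to 103 (105). On Nanopore they ran from 27 to 70 (54), from 49 to 96 (91) and from 10 to 17 (15), in the same order. DESeq2 called 186 genes in Illumina dec2P384R against dec2WT, and 103 and 41 in Nanopore dec2P384R against the control and against dec2WT. The causes were not tested. Illumina standard errors of members were 0.10 to 0.23 on the log2 scale and Nanopore ones 0.14 to 0.28, so differences the size of these medians were not detectable for a single gene.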
